A study of Homo sapiens with 9 samples.

Results

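Golgi glycosyltransferases are the enzymes that build the sugar chains of membrane and secreted proteins and of glycolipids, and 47 of their genes were followed here in LIM1215 cells with acquired cetuximab resistance. The members carry the symbol GALNT, GCNT, B3GNT, B3GALT, B4GALT, ST3GAL, ST6GAL, ST6GALNAC or FUT with a number alone, and had at least 90 counts summed over the 9 libraries. Of the 58920 genes listed, 68 bore such a symbol, 47 reached the minimum, and 21 did not, of which 6 were listed at 0 in every library (GALNT13, GALNT14, GCNT7, B3GNT6, B3GALT4 and ST6GALNAC6). The members just inside the minimum were GALNT8 with 104 counts, ST3GAL1 with 111 and ST3GAL6 with 116, and the symbols just outside it were B3GALT1 with 67 counts, GALNT4 with 49 and GCNT4 with 30. By family there were 11 GALNT, 2 GCNT, 6 B3GNT, 3 B3GALT, 7 B4GALT, 6 ST3GAL, 1 ST6GAL, 3 ST6GALNAC and 8 FUT members. Symbols whose gene shares its strand with a longer overlapping gene, such as GALNT4 and ST6GALNAC6, can lose reads in counting by gene, and the part of this in their low counts was not tested.

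LIM1215 is a RAS wild-type colorectal cancer cell line that is initially sensitive to cetuximab, an antibody against the EGF receptor. LIM1215-R1 and LIM1215-R2 were derived from it independently by months of exposure to rising cetuximab concentrations, and LIM1215-parental was kept alongside without the antibody. Both resistant lines are heterogeneous populations, not clones, and hold subpopulations with HRAS mutations. RNA was taken from all 3 lines under basal, untreated culture, and poly(A) RNA was sequenced in 3 libraries per line. The libraries of a line are described as technical replicates, so p-values measure only the spread between these libraries, and how the cultures were grown or harvested cannot be told apart from the lines themselves.

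Sugar chains grow stepwise in the Golgi. GALNT enzymes start mucin-type O-glycans by placing N-acetylgalactosamine on serine or threonine, GCNT enzymes branch them, and B3GNT, B3GALT and B4GALT enzymes lengthen O-glycans, N-glycans and glycolipids with alternating N-acetylglucosamine and galactose. Sialyltransferases of the ST3GAL, ST6GAL and ST6GALNAC families then cap the chains, and FUT enzymes add fucose, which gives the Lewis and blood group structures known from the colon epithelium. The transcript levels given here do not measure these sugar chains.

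The libraries held 13737416 to 18725014 counts, and the members together took 0.251% to 0.268% of them. A count of 3, taken as the lower limit for a library, equals 0.160 to 0.218 CPM (counts scaled to a common library size), and this limit covers counting error only. Of 9 colorectal epithelium markers, 8 were counted and KRT20 was at 0 in all 9 libraries, and their summed level was 12145 to 12507 CPM in LIM1215-parental, 15487 to 15769 in LIM1215-R1 and 14026 to 14433 in LIM1215-R2. Of these markers, KRT8, KRT18 and VIL1 were higher in both resistant lines, while EPCAM, CDX1, CDX2 and LGALS4 were lower in both, at -0.26, -0.85, -0.44 and -0.23 on the log2 scale in LIM1215-R1 and -0.32, -0.65, -0.54 and -0.37 in LIM1215-R2. The part of these differences in the results was not tested. Markers of fibroblasts, leukocytes and endothelium summed to at most 3.19, 0.531 and 0.722 CPM per library, with COL1A2, PTPRC and CD3E at 0 throughout.

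The repertoire of the line was led by ST6GAL1, which caps N-glycans with alpha-2,6-linked sialic acid. Per kilobase of the canonical transcript, so that genes of different length can be compared, its mean level over the 9 libraries was 50.02 CPM per kb, followed by GALNT6 with 44.8, B4GALT2 with 38.3, B3GNT3 with 36.6 and FUT3 with 36.5. At the low end stood ST3GAL5 with 0.492 CPM per kb, ST3GAL4 with 0.469, GALNT8 with 0.304, ST3GAL6 with 0.246 and ST3GAL1 with 0.115. Many neighbours in this order could not be separated, since the 3 libraries of adjacent genes overlapped in 29 of 46 pairs in the parental line, 32 in LIM1215-R1 and 29 in LIM1215-R2. Libraries of a line differed little for well counted members (median coefficient of variation 4.78% for the 33 members with at least 1000 counts, and 15.8% for the other 14).

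**Figure D1:**
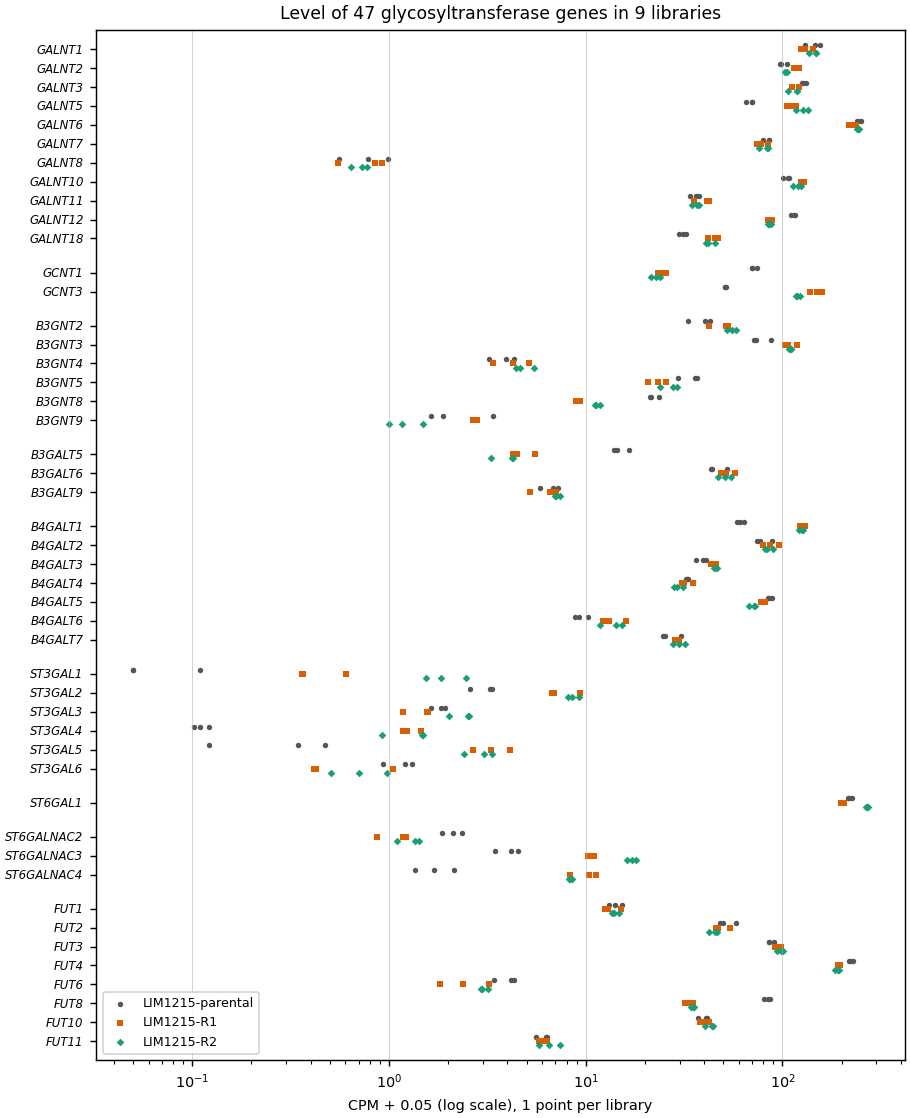
CPM of the 47 members in each of the 9 libraries, grouped by family, on a log axis to which 0.05 CPM was added so that a level of 0 can be drawn. Circles are LIM1215-parental, squares LIM1215-R1 and diamonds LIM1215-R2. The ST3GAL and ST6GALNAC members lie far to the left of ST6GAL1, and the widest gaps between the circles and the other symbols are seen for ST3GAL1, ST3GAL4 and ST3GAL5.

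To ask how the resistant lines differ from the parental line, the quasi-likelihood test of edgeR was applied to 19102 genes, and p-values were adjusted over all of them by the Benjamini-Hochberg method. A member is said to have changed where its adjusted p did not exceed 0.01, and to be a differentially expressed gene (DEG) where the log2 fold change was also at least 1.5 in size. In LIM1215-R1, 15 members were higher and 9 lower than in LIM1215-parental, against 14% and 13.4% of all genes tested. Since every member has at least 90 counts, the closer background is the 13412 genes with that many counts, of which 36.6% changed, and 51.1% of the members did. In LIM1215-R2, 15 members were higher and 8 lower, 48.9% in all, where the background was 12.3% higher and 11.6% lower among all genes tested and 31.9% changed among genes with at least 90 counts. The difference of the members from these shares was not tested. In such bulk samples, fewer cells with a transcript and less of it per cell cannot be told apart.

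LIM1215-R1 had 7 DEGs among the members and LIM1215-R2 also 7, each time 5 higher and 2 lower. DEGs made up 5.14% of all genes tested and 4.99% of those with at least 90 counts in LIM1215-R1, and 4.82% and 4.83% in LIM1215-R2. Both comparisons use the same parental libraries and are therefore given side by side. In both, GCNT1 and B3GALT5 were the lower DEGs and ST3GAL1, ST3GAL4, ST3GAL5 and ST6GALNAC4 were among the higher ones, joined by GCNT3 in LIM1215-R1 and ST6GALNAC3 in LIM1215-R2. ST3GAL1, ST3GAL4 and ST3GAL5 had 1, 3 and 14 parental counts, and reached the minimum of 90 counts through the resistant lines. Their place among the members thus depends on the lines in which they are higher, and the numbers of changed members and DEGs include them. With the shrunken log2 fold changes of DESeq2's lfcShrink, B3GALT5 (-1.49), ST3GAL1 (0.59) and ST3GAL4 (1.30) fell short of the DEG threshold in LIM1215-R1, and ST3GAL4 (1.30) did so in LIM1215-R2. The members moved in both directions, with a median log2 fold change of 0.01 in LIM1215-R1 and 0.11 in LIM1215-R2, beside -0.01 and 0.00 over all genes tested. Their median size of change was 0.30 and 0.35, against 0.22 and 0.20 over genes with at least 90 counts.

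**Figure D2:**
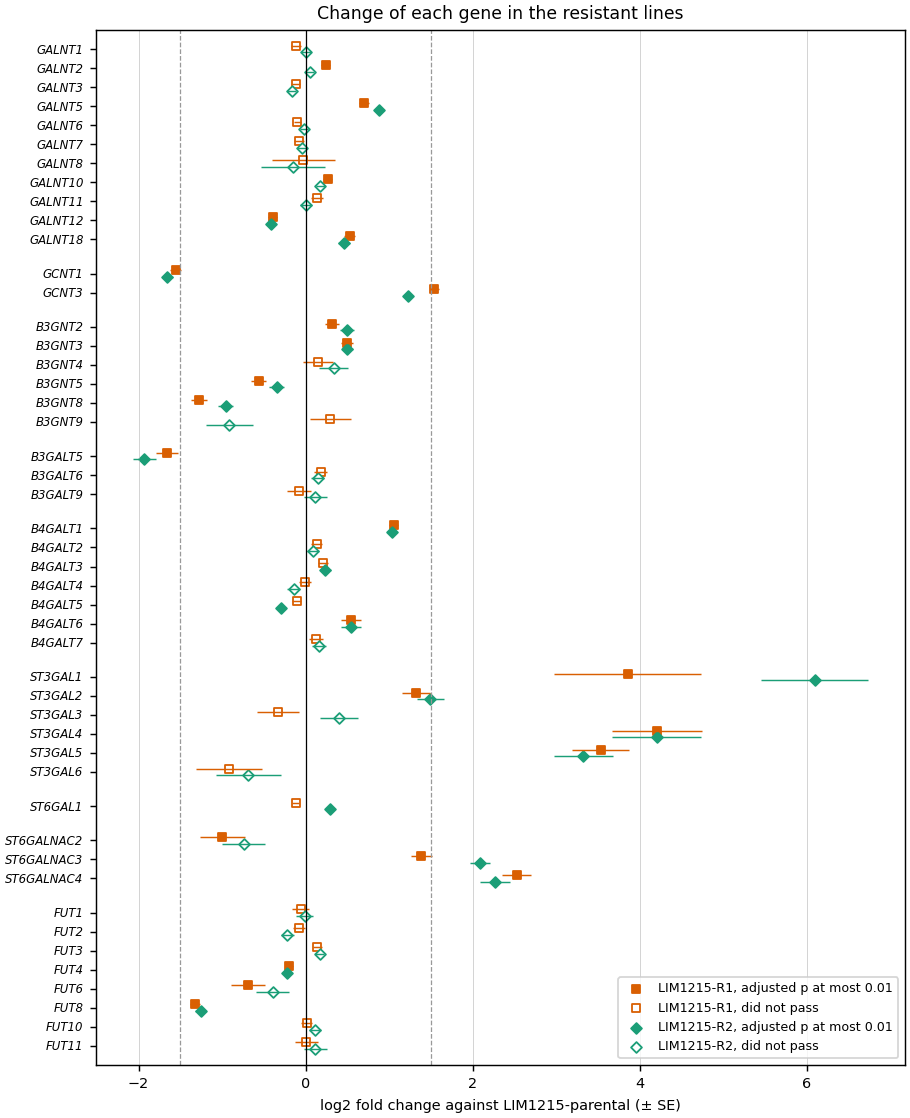
Log2 fold change of each of the 47 members in LIM1215-R1 (squares) and LIM1215-R2 (diamonds) against LIM1215-parental, with bars for the SE. Filled symbols passed an adjusted p of 0.01 and dashed lines mark a log2 fold change of 1.5 in either direction. The DEGs lie in the GCNT, B3GALT, ST3GAL and ST6GALNAC families, while most GALNT, B4GALT and FUT members lie close to 0.

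Changes among the enzymes that start O-glycans were small, at most 0.88 on the log2 scale. Of the 11 GALNT members, LIM1215-R1 showed 4 higher and 1 lower, and LIM1215-R2 showed 2 higher and 1 lower. GALNT10 was called higher in LIM1215-R1 (0.27 ± 0.05 on the log2 scale). In LIM1215-R2 it fell just short (0.17 ± 0.05, edgeR adjusted p = 0.0104). No GALNT member passed between the resistant lines. The leading member, GALNT6, had 239, 251 and 241 CPM in the parental libraries, 217, 230.5 and 236 in LIM1215-R1 and 244, 241 and 238 in LIM1215-R2, and did not pass in either comparison (log2 fold changes -0.10 ± 0.04 and -0.02 ± 0.04 SE). The largest change was that of GALNT5, which rose from 69.9, 65.0 and 69.6 CPM to 117, 109 and 106 in LIM1215-R1 and to 127, 134 and 116 in LIM1215-R2. All 6 resistant libraries lay above the parental ones, at 1.62-fold and 1.85-fold (edgeR adjusted p = 2.79e-10 and 1.95e-12). GALNT18 rose as well, from 29.8, 32.2 and 31.0 CPM to 46.9, 41.8 and 45.1 in LIM1215-R1 and to 40.9, 45.3 and 42.0 in LIM1215-R2 (log2 fold changes 0.53 ± 0.07 and 0.46 ± 0.07 SE). GALNT12 was the lower member in both lines, at -0.39 ± 0.05 and -0.41 ± 0.05 on the log2 scale. Summed per kilobase, the family summed to 253 ± 2.24 CPM per kb in the parental line, 252 ± 7.19 in LIM1215-R1 and 251 ± 7.25 in LIM1215-R2 (SD, n = 3).

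Both branching enzymes changed, in opposite directions. GCNT1 makes core 2 branches on O-glycans and lies on chromosome 9 (76393869 to 76507416, hg38). It had 69.6, 69.9 and 74.4 CPM in the parental line, 23.3, 25.7 and 23.8 in LIM1215-R1 and 23.9, 22.7 and 21.4 in LIM1215-R2. Every resistant library was below every parental one, 2.94-fold lower in LIM1215-R1 and 3.15-fold lower in LIM1215-R2 (log2 fold changes -1.56 ± 0.07 and -1.65 ± 0.07 SE, edgeR adjusted p = 2.42e-16 and 7.96e-17). GCNT3, the mucin-type branching enzyme that also makes core 4, lies on chromosome 15 (59611783 to 59622723). It had 51.9, 50.7 and 51.1 CPM in the parental line, 150.4, 139 and 159 in LIM1215-R1 and 118, 118 and 122 in LIM1215-R2. The 3 lines did not overlap, and GCNT3 was 2.91-fold higher in LIM1215-R1 and 2.33-fold higher in LIM1215-R2 (edgeR adjusted p = 4.02e-18 and 8.12e-16). Its log2 fold change of 1.54 ± 0.06 in LIM1215-R1 was close to the DEG threshold and was 1.496 without library 3 of LIM1215-R1. Within each library, the ratio of GCNT3 to GCNT1 per kilobase rose from 0.811 ± 0.0334 in LIM1215-parental to 6.96 ± 0.765 in LIM1215-R1 and 5.96 ± 0.461 in LIM1215-R2 (SD, n = 3), with no overlap between the parental and the resistant libraries.

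Among the B3GNT members, which add N-acetylglucosamine to lengthen chains, 2 were higher and 2 lower in each resistant line. B3GNT3, which extends core 1 O-glycans and was the leading member, had 71.2, 87.5 and 73.7 CPM in the parental line, 103, 118 and 106 in LIM1215-R1 and 108, 111 and 109.9 in LIM1215-R2. It was 1.41-fold and 1.42-fold higher (edgeR adjusted p = 7.76e-07 and 6.42e-07), without overlap between the parental and resistant libraries. B3GNT8, which lengthens N-glycan branches, fell from 21.4, 23.6 and 21.3 CPM to 8.83, 9.35 and 9.20 in LIM1215-R1 and to 11.1, 11.3 and 11.8 in LIM1215-R2. The falls were 2.41-fold and 1.94-fold (log2 fold changes -1.27 ± 0.10 and -0.96 ± 0.09 SE, edgeR adjusted p = 1.76e-11 and 2.58e-09). B3GNT2, the main poly-N-acetyllactosamine enzyme, was higher at 0.32 ± 0.09 and 0.50 ± 0.08 on the log2 scale, and B3GNT5, which starts lacto-series glycolipids, was lower at -0.56 ± 0.09 and -0.35 ± 0.09. The call of B3GNT2 in LIM1215-R1 was lost without library 2 of LIM1215-parental (log2 fold change 0.22, edgeR adjusted p = 0.0254) or without library 1 or 3 of LIM1215-R1 (0.28 and 0.26, adjusted p = 0.0162 and 0.0434). It was also lost with library totals only as scaling and in the fit to the 6 libraries of the comparison (edgeR adjusted p = 0.0103 and 0.0118). The call of B3GNT5 in LIM1215-R2 was lost without library 1 or 3 of LIM1215-parental (-0.31 and -0.29, edgeR adjusted p = 0.027 and 0.0392) or library 2 or 3 of LIM1215-R2 (-0.36 and -0.27, adjusted p = 0.0147 and 0.0416).

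Of the 3 B3GALT members, 1 changed. B3GALT5 builds the type 1 chains on which sialyl Lewis a is made, and lies on chromosome 21 (39612940 to 39673137). It had 14.3, 16.5 and 13.9 CPM in the parental line, 4.23, 5.46 and 4.44 in LIM1215-R1 and 4.16, 4.21 and 3.27 in LIM1215-R2. All resistant libraries lay below the parental ones, by 3.15-fold in LIM1215-R1 and 3.81-fold in LIM1215-R2 (log2 fold changes -1.66 ± 0.13 and -1.93 ± 0.14 SE, edgeR adjusted p = 5.69e-11 and 4.69e-12). B3GALT6, an enzyme of the glycosaminoglycan linker and the leading member per kilobase, had 43.1, 52.0 and 43.6 CPM in the parental line, 48.4, 57.2 and 51.3 in LIM1215-R1 and 47.04, 50.9 and 54.8 in LIM1215-R2, and these ranges overlapped.

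Of the 7 B4GALT members, LIM1215-R1 showed 2 higher, and LIM1215-R2 showed 3 higher and 1 lower. B4GALT1, the main enzyme of type 2 N-acetyllactosamine, had 58.6, 63.9 and 60.7 CPM in the parental line, 127, 129.8 and 123 in LIM1215-R1 and 126, 121 and 127 in LIM1215-R2. It was raised in both lines, 2.08-fold and 2.05-fold (log2 fold changes 1.06 ± 0.05 and 1.03 ± 0.05 SE, edgeR adjusted p = 4.15e-15 and 7.16e-15). The share of B4GALT1 in the summed B4GALT level per kilobase was 12.0% ± 0.215 in the parental line, 21.0% ± 0.373 in LIM1215-R1 and 21.2% ± 0.434 in LIM1215-R2 (SD, n = 3). The leading member, B4GALT2, had 74.1, 88.6 and 77.0 CPM in the parental line, 80.0, 95.9 and 86.0 in LIM1215-R1 and 81.1, 83.8 and 89.6 in LIM1215-R2, with overlapping ranges. B4GALT6, a lactosylceramide synthase, rose from 10.2, 8.74 and 9.19 CPM to 15.9, 12.2 and 13.0 in LIM1215-R1 and to 15.2, 14.1 and 11.8 in LIM1215-R2, at 0.55 ± 0.12 on the log2 scale in both. Without library 1 of LIM1215-R2 the second of these calls was lost (log2 fold change 0.47, edgeR adjusted p = 0.0115).

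The largest changes among the members were those of sialyltransferases. Of the 10 members in the 3 sialyltransferase families, 6 rose in both lines, namely ST3GAL1, ST3GAL2, ST3GAL4, ST3GAL5, ST6GALNAC3 and ST6GALNAC4. The RefSeq promoter windows (GRCh38.p14, 250 bases before to 50 after the annotated start) of 3 genes that rose as DEGs in both lines are shown with that of GCNT1, which fell, as examples from either direction. CG dinucleotides are in capitals.
ST3GAL4: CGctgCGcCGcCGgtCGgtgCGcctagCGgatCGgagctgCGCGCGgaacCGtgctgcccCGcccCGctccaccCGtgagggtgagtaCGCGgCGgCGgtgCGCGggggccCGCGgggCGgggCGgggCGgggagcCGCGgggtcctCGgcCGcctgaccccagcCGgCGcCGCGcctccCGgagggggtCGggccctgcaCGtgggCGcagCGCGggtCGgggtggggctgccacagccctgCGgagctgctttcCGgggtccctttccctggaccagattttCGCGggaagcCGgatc
ST3GAL5: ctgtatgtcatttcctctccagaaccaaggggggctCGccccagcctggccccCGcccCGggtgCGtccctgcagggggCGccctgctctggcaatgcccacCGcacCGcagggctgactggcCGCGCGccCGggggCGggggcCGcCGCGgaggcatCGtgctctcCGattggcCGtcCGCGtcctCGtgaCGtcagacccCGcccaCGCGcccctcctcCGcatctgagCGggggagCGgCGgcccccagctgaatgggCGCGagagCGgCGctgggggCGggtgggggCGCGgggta
ST6GALNAC4: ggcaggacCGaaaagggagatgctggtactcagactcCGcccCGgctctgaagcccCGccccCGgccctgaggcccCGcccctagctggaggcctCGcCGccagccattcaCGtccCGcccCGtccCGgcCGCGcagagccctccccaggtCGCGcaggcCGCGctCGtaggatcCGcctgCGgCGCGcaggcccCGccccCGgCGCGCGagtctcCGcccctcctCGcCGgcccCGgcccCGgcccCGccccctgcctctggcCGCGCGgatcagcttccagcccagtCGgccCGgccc
GCNT1: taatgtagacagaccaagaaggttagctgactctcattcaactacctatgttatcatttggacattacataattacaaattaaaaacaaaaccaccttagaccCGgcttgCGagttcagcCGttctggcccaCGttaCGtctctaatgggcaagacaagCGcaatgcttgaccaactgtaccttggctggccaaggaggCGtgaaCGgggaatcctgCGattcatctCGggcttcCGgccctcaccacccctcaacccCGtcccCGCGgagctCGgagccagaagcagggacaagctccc

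The windows lie at chr11:126355762-126356061 on the plus strand for ST3GAL4, chr2:85888941-85889240 on the minus strand for ST3GAL5, chr9:127916992-127917291 on the minus strand for ST6GALNAC4 and chr9:76393619-76393918 on the plus strand for GCNT1. They hold 46 CG dinucleotides in ST3GAL4, 36 in ST3GAL5, 39 in ST6GALNAC4 and 15 in GCNT1. The windows of ST3GAL4 and ST3GAL5 are set on an annotated start inside the gene span given below, not on its outer end, and that of ST3GAL4 lies wholly within the gene. A RefSeq window was found for 35 of the 47 members, with a median of 29 CG dinucleotides against 14 over 27305 promoters. The GC box, searched as GGGCGG on both strands, occurs 4 times in the window of ST3GAL4, 4 times in that of ST3GAL5 and 7 times in that of ST6GALNAC4, and was not found in that of GCNT1. These counts do not part the DEGs by direction, since the window of B3GALT5, which fell in both lines, holds 35 CG dinucleotides and 2 GC boxes, and that of GCNT3, which rose in both, holds 3 CG dinucleotides and no GC box. The GC box occurs in 24 of the 35 member windows (68.6%) and in 44.6% of all promoters. TATAAA on either strand was found in 0 of the 35 and in 11.95% of all promoters. These matches describe the letters of the annotated windows, and whether these cells use the annotated starts was not tested.

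ST3GAL1, which caps core 1 O-glycans with sialic acid, lies on chromosome 8 (133454848 to 133571887). It had 1, 0 and 0 counts in the parental libraries, 9, 5 and 5 in LIM1215-R1 and 30, 24 and 37 in LIM1215-R2, that is 0.0590, 0 and 0 CPM, 0.552, 0.314 and 0.313 CPM, and 1.78, 1.49 and 2.42 CPM. The 3 lines did not overlap, and the parental libraries were under the limit of 3 counts. The ratio to LIM1215-parental was 19.6 (95% counting interval 3.12 to 816) for LIM1215-R1 and 93.9 (16.4 to 3750.4) for LIM1215-R2, with edgeR adjusted p = 0.000952 and 1.14e-08. These ratios rest on 1 parental read, in library 1, without which the parental total is 0 (edgeR adjusted p = 0.00126 and 1.38e-07).

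ST3GAL4, which caps N-acetyllactosamine ends and serves in making sialyl Lewis x, lies on chromosome 11 (126355686 to 126414638). It had 0.0590, 0.0722 and 0.0525 CPM in LIM1215-parental, 1 count in each library, 1.41, 1.13 and 1.19 CPM in LIM1215-R1 and 1.43, 0.867 and 1.44 CPM in LIM1215-R2. All resistant libraries were above all parental ones, and 60 counts in each resistant line against 3 gave ratios of 20.7 (95% counting interval 6.74 to 103) and 20.6 (6.73 to 103), with edgeR adjusted p = 3.86e-07 and 3.85e-07. ST3GAL5, the GM3 ganglioside synthase, lies on chromosome 2 (85837120 to 85889034). It rose from 0.295, 0.0722 and 0.420 CPM to 3.25, 2.64 and 4.07 in LIM1215-R1 and to 3.27, 2.97 and 2.35 in LIM1215-R2. The rises were 11.6-fold and 10.0-fold without overlap (log2 fold changes 3.53 ± 0.34 and 3.32 ± 0.35 SE, edgeR adjusted p = 2.93e-09 and 1.41e-08).

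ST3GAL2, which acts on core 1 O-glycans and gangliosides, was the ST3GAL member of the highest mean level per kilobase (0.809 CPM per kb, with ST3GAL3 close to it at 0.806). It had 3.30, 2.53 and 3.20 CPM in the parental line, 6.81, 9.35 and 6.70 in LIM1215-R1 and 8.50, 8.05 and 9.21 in LIM1215-R2. It was higher in both with no overlap (log2 fold changes 1.32 ± 0.16 and 1.49 ± 0.16 SE, edgeR adjusted p = 2.55e-07 and 2.2e-08). In LIM1215-R2 it lay just under the DEG threshold, and without library 1 or 3 of LIM1215-parental or library 1 or 2 of LIM1215-R2 it passed, at 1.56, 1.54, 1.502 and 1.54. The other two ST3GAL members, ST3GAL3 and ST3GAL6, passed in neither line, with -0.33 ± 0.25 and -0.92 ± 0.40 (log2 fold change ± SE) in LIM1215-R1 and 0.41 ± 0.23 and -0.68 ± 0.38 in LIM1215-R2. Summed per kilobase, the 6 genes went from 1.60 ± 0.106 CPM per kb in LIM1215-parental to 3.27 ± 0.193 in LIM1215-R1 and 3.95 ± 0.213 in LIM1215-R2 (SD, n = 3). ST3GAL3 made up 48.7% ± 3.81 of this sum in the parental line, 18.8% ± 2.31 in LIM1215-R1 and 26.0% ± 3.30 in LIM1215-R2.

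Enzymes of the ST6GALNAC family place sialic acid on the N-acetylgalactosamine of O-glycans. ST6GALNAC4, which turns sialylated core 1 into its disialylated form, lies on chromosome 9 (127907886 to 127917041). It had 1.65, 1.30 and 2.101 CPM in the parental line, 8.28, 10.4 and 11.2 in LIM1215-R1 and 8.15, 8.30 and 8.49 in LIM1215-R2. It was 5.76-fold and 4.81-fold higher with no overlap (log2 fold changes 2.53 ± 0.17 and 2.27 ± 0.18 SE, edgeR adjusted p = 2.83e-12 and 4.26e-11). ST6GALNAC3, which acts on the same kind of substrate and on gangliosides, lies on chromosome 1 (76074746 to 76637339). It had 4.48, 3.40 and 4.10 CPM in the parental line, 10.9, 10.5 and 10.2 in LIM1215-R1 and 18.02, 16.2 and 17.2 in LIM1215-R2. The 3 lines were separate, at 2.61-fold in LIM1215-R1 and 4.25-fold in LIM1215-R2 (log2 fold changes 1.39 ± 0.13 and 2.09 ± 0.12 SE, edgeR adjusted p = 1.1e-09 and 6.44e-14). ST6GALNAC2 fell in LIM1215-R1 at -0.997 ± 0.266 on the log2 scale (edgeR adjusted p = 0.00382) and did not pass in LIM1215-R2 (-0.74 ± 0.26, adjusted p = 0.0279). The first call was lost without library 1 or 3 of LIM1215-parental or library 2 of LIM1215-R1 (edgeR adjusted p = 0.0111, 0.0245 and 0.0244). With all libraries kept, it was also lost under the DESeq2 Wald test (adjusted p = 0.0215).

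ST6GAL1 remained the sialyltransferase of the highest level in every library. It had 217, 226 and 216 CPM in the parental line, 199, 203 and 205 in LIM1215-R1 and 272, 269.6 and 265 in LIM1215-R2. It was 1.22-fold higher in LIM1215-R2 (log2 fold change 0.29 ± 0.04 SE, edgeR adjusted p = 4.07e-06) and did not pass in LIM1215-R1 (-0.12 ± 0.04, adjusted p = 0.0311). Per kilobase, ST6GAL1 made up 91.8% ± 1.03 of the summed level of the 10 sialyltransferases in the parental line, 79.7% ± 1.07 in LIM1215-R1 and 83.0% ± 0.321 in LIM1215-R2 (SD, n = 3). ST6GALNAC4 made up 1.90% ± 0.471, 10.5% ± 1.32 and 6.93% ± 0.238. The summed level of the 10 genes was 52.0 ± 0.770 CPM per kb in the parental line, 55.1 ± 1.53 in LIM1215-R1 and 70.3 ± 0.956 in LIM1215-R2.

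**Figure D3:**
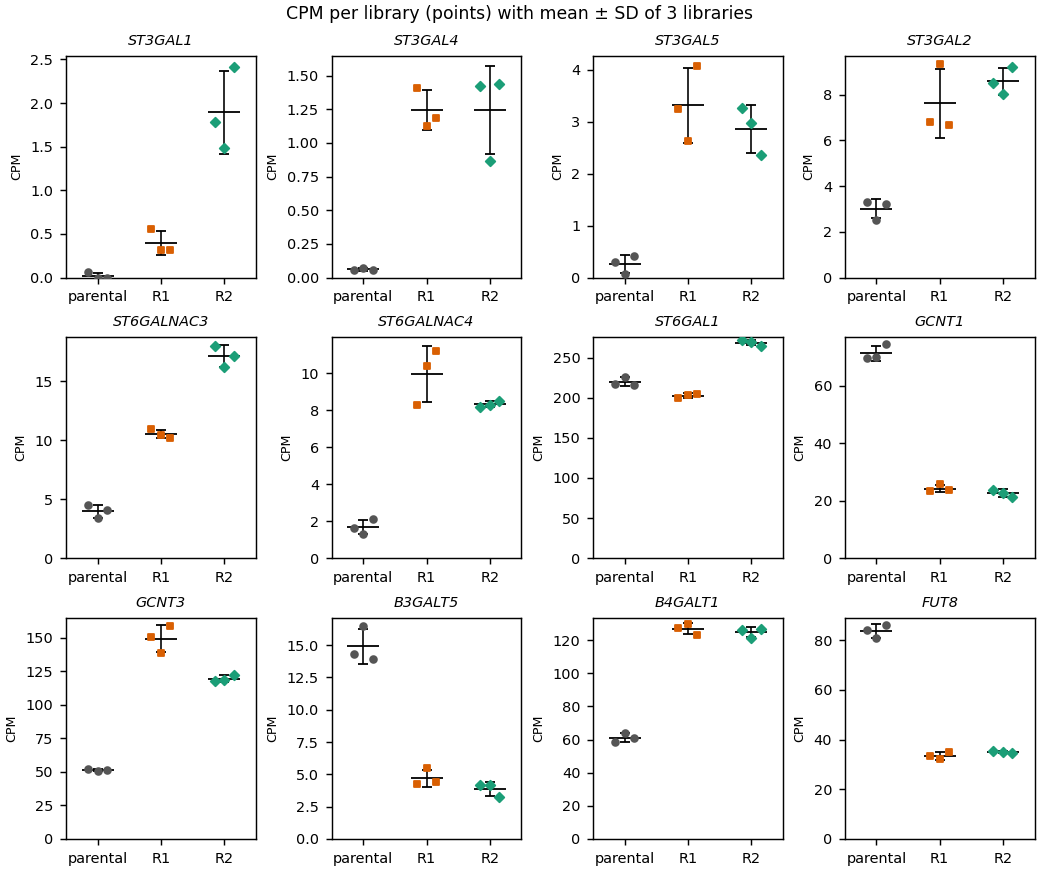
CPM in each library for 12 members, with points for the 3 libraries of each line and a bar with whiskers for their mean ± SD. Axes are linear and start at 0. The 6 ST3GAL and ST6GALNAC genes, GCNT3 and B4GALT1 are higher in both resistant lines, GCNT1, B3GALT5 and FUT8 are lower in both, and ST6GAL1 is above its parental level in LIM1215-R2.

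Of the 8 fucosyltransferase members, 3 were lower in LIM1215-R1 and 2 in LIM1215-R2. FUT8, which adds the core fucose of N-glycans, had 84.1, 80.8 and 86.2 CPM in the parental line, 33.3, 32.0 and 35.1 in LIM1215-R1 and 35.5, 35.2 and 34.4 in LIM1215-R2. All resistant libraries were below the parental ones, 2.503-fold and 2.39-fold (log2 fold changes -1.32 ± 0.06 and -1.26 ± 0.06 SE, edgeR adjusted p = 7.01e-16 and 1.92e-15). FUT3, the Lewis enzyme, had the highest mean per kilobase of the family over the 9 libraries, but FUT4 was above it in the parental line, at 37.1 ± 0.965 against 33.9 ± 1.02 CPM per kb (SD, n = 3). FUT3 had 85.3, 90.1 and 85.8 CPM in the parental line, 97.7, 98.8 and 91.6 in LIM1215-R1 and 98.7, 94.1 and 101 in LIM1215-R2. It did not pass in either line (log2 fold changes 0.14 ± 0.05 and 0.17 ± 0.05, edgeR adjusted p = 0.0401 and 0.0154). FUT4, which makes Lewis x, was slightly lower in both lines at -0.20 ± 0.04 and -0.23 ± 0.04 on the log2 scale. FUT6 had 3.36, 4.12 and 4.25 CPM in the parental line, 2.33, 1.76 and 3.19 in LIM1215-R1 and 3.15, 2.91 and 2.87 in LIM1215-R2. Its call in LIM1215-R1 (log2 fold change -0.69 ± 0.20, edgeR adjusted p = 0.00904) was lost without any one of 7 of the 9 libraries (those other than library 1 of LIM1215-parental and library 3 of LIM1215-R1), with the weakest value without library 2 of LIM1215-R1 (-0.50, edgeR adjusted p = 0.0673). The FUT6 call was also lost under the DESeq2 Wald test (adjusted p = 0.0282) and in the fit to the 6 libraries of the comparison (edgeR adjusted p = 0.019). Counts of FUT3 and FUT6 are uncertain, since 13.8% and 7.47% of the 50-base stretches in all their annotated transcripts also occur in transcripts of other FUT genes.

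Fewer members differed between the resistant lines. In LIM1215-R2 against LIM1215-R1, 3 members were higher and 2 lower, where 3.39% and 3.77% of all genes tested were, and the 10.6% of members that changed stand beside 9.92% of genes with at least 90 counts. ST3GAL1 was the DEG among them, with DEGs making up 0.764% of all genes tested. This gene reached the minimum of 90 counts only through LIM1215-R2, the line in which it is higher. It was 4.73-fold higher in LIM1215-R2 (log2 fold change 2.24 ± 0.38 SE, edgeR adjusted p = 0.000132), from 19 counts in LIM1215-R1 and 91 in LIM1215-R2, and its shrunken log2 fold change of 1.21 in DESeq2 was under the DEG threshold. ST6GALNAC3 was 1.63-fold higher (0.70 ± 0.10, edgeR adjusted p = 2.05e-05) and ST6GAL1 1.33-fold higher (0.41 ± 0.04, adjusted p = 1.01e-07). GCNT3 was 1.25-fold lower in LIM1215-R2 (-0.32 ± 0.05, edgeR adjusted p = 9.98e-05). In these 4 genes the libraries of LIM1215-R1 and LIM1215-R2 did not overlap.

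B3GNT9 was the other lower member, with 1.59, 3.32 and 1.84 CPM in the parental line, 2.76, 2.699 and 2.63 in LIM1215-R1 and 0.951, 1.11 and 1.44 in LIM1215-R2. It was 2.31-fold lower in LIM1215-R2 than in LIM1215-R1 (log2 fold change -1.21 ± 0.27 SE, edgeR adjusted p = 0.00298), on 56 and 130 counts. The call was lost without library 3 of LIM1215-R1 (-1.23, edgeR adjusted p = 0.0126) and without library 1 or 2 of LIM1215-R2 (-1.08 and -1.18, adjusted p = 0.0328 and 0.0221). For the other members that changed by at least 1 on the log2 scale in LIM1215-R1, 95% intervals of the log2 difference between the resistant lines follow. They were -0.25 to 0.05 for GCNT1, -0.59 to 0.04 for B3GALT5, -0.12 to 0.07 for B4GALT1 and -0.06 to 0.20 for FUT8. Among sialyltransferases they were -0.10 to 0.45 for ST3GAL2, -0.59 to 0.59 for ST3GAL4, -0.64 to 0.23 for ST3GAL5 and -0.52 to 0.00 for ST6GALNAC4. The interval of B3GNT8, 0.11 to 0.52, lay above 0, though this gene did not pass (edgeR adjusted p = 0.0438).

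The members work with other genes that supply sugar donors, trim N-glycans or make further end structures. Of 78 such genes, 70 were tested, of which 12 were higher and 15 lower in LIM1215-R1 (38.6%), and 9 higher and 16 lower in LIM1215-R2 (35.7%). Among all genes tested, which passed the same filter, 14% were higher and 13.4% lower in LIM1215-R1, and 12.3% and 11.6% in LIM1215-R2. Among genes with at least 90 counts, 36.6% and 31.9% changed, but the 70 genes were not held to that minimum. The difference of the 70 genes from either background was not tested. The median log2 fold change of the 70 genes was -0.02 in LIM1215-R1 and -0.01 in LIM1215-R2. GNE, the rate-limiting enzyme of sialic acid synthesis, had 15.6, 13.7 and 15.2 CPM in the parental line, 0.184, 0.251 and 0.313 in LIM1215-R1 and 0.773, 0.681 and 0.653 in LIM1215-R2. It was 57.9-fold lower in LIM1215-R1 and 20.9-fold lower in LIM1215-R2 (log2 fold changes -5.86 ± 0.22 and -4.38 ± 0.18 SE, edgeR adjusted p = 5.49e-18 and 4.78e-17). The GNE levels in LIM1215-R1 lie close to the limit of 3 counts (0.160 to 0.218 CPM), so the size of the fall there is poorly measured. For GNE, LIM1215-R2 against LIM1215-R1 did not pass (log2 difference 1.47 ± 0.40 SE, edgeR adjusted p = 0.0147). SLC35A1, the transporter that brings CMP-sialic acid into the Golgi, was also lower, at -0.51 ± 0.09 and -0.49 ± 0.09 (edgeR adjusted p = 6.15e-05 and 0.000106). CMAS, which activates sialic acid to its CMP form, did not pass in LIM1215-R1 (-0.05 ± 0.05) and was lower in LIM1215-R2 (-0.25 ± 0.05). NANS and NANP, listed with GNE among the sugar nucleotide synthesis genes, passed in neither line. Their log2 fold changes were -0.10 ± 0.06 and 0.03 ± 0.09 SE in LIM1215-R1, and -0.14 ± 0.06 and -0.01 ± 0.09 in LIM1215-R2. GNE and SLC35A1 were thus lower in both lines, in which 6 sialyltransferase genes were higher. Among these 6, ST3GAL1, ST3GAL4 and ST3GAL5 are members only through their counts in the resistant lines. ST6GAL1, with a mean share of 79.7% to 91.8% of the sialyltransferase level per kilobase, was called higher in LIM1215-R2 only.

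Among transferases outside the 9 families, B4GALNT1, the GM2 and GD2 ganglioside synthase, rose from 0.708, 0.867 and 0.578 CPM to 6.93, 6.59 and 7.20 in LIM1215-R1 and to 7.61, 7.93 and 7.25 in LIM1215-R2. The rises were 9.72-fold and 10.7-fold (edgeR adjusted p = 2.37e-13 and 7.06e-14). B4GALNT4, which makes LacdiNAc ends, rose 6.18-fold and 5.82-fold from a parental mean of 5.54 ± 1.09 CPM (SD, n = 3). ST8SIA6, which adds a second sialic acid, was raised in LIM1215-R1 with 1.35, 1.38 and 1.75 CPM, against 0.118, 0.0722 and 0.158 in LIM1215-parental and 0.119, 0.0619 and 0.131 in LIM1215-R2. It was higher in LIM1215-R1 than in either other line (log2 fold change 3.55 ± 0.47 against LIM1215-parental, and LIM1215-R2 against LIM1215-R1 at -3.75 ± 0.49, edgeR adjusted p = 7.98e-07 and 3.89e-06). The libraries of LIM1215-parental and LIM1215-R2 lie at or under the limit of 3 counts, so the size of these differences is poorly measured.

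In N-glycan processing, MAN1A1, a trimming mannosidase, fell from 77.7, 72.2 and 78.0 CPM to 30.4, 25.4 and 26.3 in LIM1215-R1 and to 23.5, 24.8 and 21.9 in LIM1215-R2 (log2 fold changes -1.47 ± 0.07 and -1.70 ± 0.07 SE). GAL3ST4, a sulfotransferase of O-glycans, was lower at -1.04 ± 0.15 and -1.52 ± 0.16. MGAT5 and MGAT3, chosen after their values were seen, make competing N-glycan branches. MGAT5, which opens the tetraantennary branch, rose from 319, 312 and 298 CPM to 589, 589 and 578 in LIM1215-R1 and to 789, 765 and 762 in LIM1215-R2, and MGAT3, which adds the bisecting residue, fell from 21.3, 24.9 and 23.5 CPM to 10.7, 13.7 and 11.5 and to 11.2, 10.5 and 11.4. The changes were 1.89-fold and 2.498-fold up for MGAT5 and 1.94-fold and 2.097-fold down for MGAT3 (edgeR adjusted p = 1.09e-16, 5.2e-20, 1.18e-08 and 1.78e-09). C1GALT1, which makes the core 1 O-glycan that GCNT1, ST3GAL1 and ST3GAL2 build on, had log2 fold changes of 0.01 ± 0.07 and -0.01 ± 0.07. Its chaperone gene C1GALT1C1 had -0.18 ± 0.08 and -0.08 ± 0.08, and neither gene passed.

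**Figure D4:**
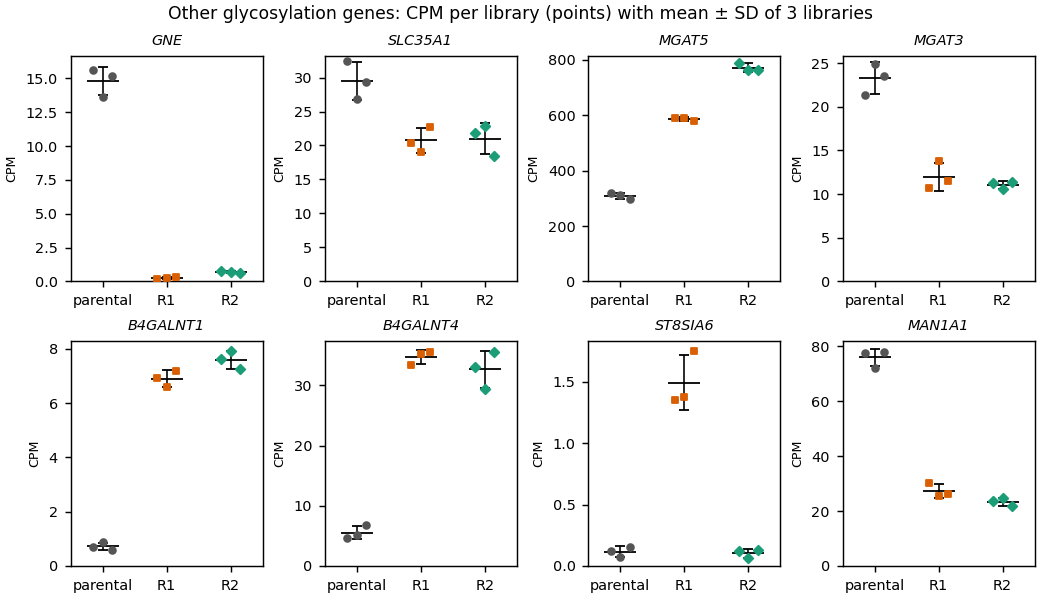
CPM in each library for 8 glycosylation genes outside the 9 families, with points for the 3 libraries of each line and a bar with whiskers for their mean ± SD, on linear axes from 0. GNE, SLC35A1, MGAT3 and MAN1A1 are lower in both resistant lines, MGAT5, B4GALNT1 and B4GALNT4 are higher in both, and ST8SIA6 is higher in LIM1215-R1.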

How the data were processed

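Each of the 3 lines was sequenced in 3 stranded poly(A) libraries per line. The authors used STAR to align reads to hg38 and HTSeq 0.9.1 (version per the submitters' processing notes) to count reverse-strand reads of each gene, and deposited raw counts per library without normalization. The gene annotation they used is not given in the sources used here.

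The analysis used edgeR 4.0.16 in R 4.3.3. Genes reaching 10 counts in the sum of all 9 libraries (19102) were kept, scaled with TMM, and fitted with 1 quasi-likelihood model over all 9 libraries with the 3 lines as groups. Lines were compared two-sided, and p-values were adjusted by the Benjamini-Hochberg method across these genes. The SE was derived from the test statistic, and CPM values use the TMM factors. Levels per kilobase use the canonical transcript of GENCODE release 44 and depend on its length. Gene coordinates (hg38), promoter windows and gene names came from RefSeq tables. For members with 1 to 3 counts summed over the 3 libraries of a line, an exact 95% counting interval of the ratio is given.

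The members, gene lists and tests were chosen with earlier results of these data known. Values in every library were given for DEGs, for the leading member per kilobase of each family and for the 2 changed members with the largest fold change in each. From the other list, the DEGs were named, with genes chosen for their function and with MGAT5 and MGAT3, chosen after their values were seen. The rule left out 1 symbol, which is not reported here. Alternatives were a stricter and no count filter, size factors of DESeq2, totals without TMM, DESeq2 1.42.0 with and without lfcShrink, fits to 6 libraries, a replicate block, omission of each library, and other thresholds. The scripts were tested on simulated data. Counts of replicate libraries differed by more than sampling noise (chi-square per degree of freedom 1.83 to 6.05), so each was counted as 1 library.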

Additional observations from a re-analysis of the deposited data

Results flagged for a closer look

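In 5 members the effect against LIM1215-parental differed between the resistant lines, as tested by the contrast of LIM1215-R2 with LIM1215-R1 in edgeR. The log2 difference, LIM1215-R2 minus LIM1215-R1, was 2.24 for ST3GAL1, 0.70 for ST6GALNAC3, 0.41 for ST6GAL1, -0.32 for GCNT3 and -1.21 for B3GNT9. ST3GAL1 and ST6GALNAC3 were above the parental level in both lines and further above it in LIM1215-R2, GCNT3 was further above it in LIM1215-R1, and ST6GAL1 was above it in LIM1215-R2 and did not pass in LIM1215-R1. B3GNT9 passed against LIM1215-parental in neither line, and its difference was lost when any one of 3 libraries was left out.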

How the results depend on the processing

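Up to 18 alternatives applied to each of the 52 calls of members. Of these calls, 38 were tested and held under all of them, 7 were lost under at least 1, 7 (those of ST3GAL1, ST3GAL4 and ST3GAL5) were not tested under the strict count filter and held under the others, and 0 reversed. Those lost were B3GNT2, ST6GALNAC2 and FUT6 in LIM1215-R1, B3GNT5, B4GALT3 and B4GALT6 in LIM1215-R2 and B3GNT9 between the resistant lines. B4GALT3 in LIM1215-R2 was lost without TMM (log2 fold change 0.22, edgeR adjusted p = 0.0107) and without library 1 or 3 of LIM1215-parental or any 1 library of LIM1215-R2 (0.19 to 0.25). With at least 10 counts required in every library, ST3GAL1, ST3GAL4 and ST3GAL5 were not tested, so member DEGs numbered 4 in LIM1215-R1, 4 in LIM1215-R2 and 0 between the resistant lines, where 12 members had an unadjusted p under 0.05 in the edgeR fit with all members and the DESeq2 Wald test gave 1 DEG. With DESeq2's lfcShrink, which shrinks fold changes of poorly counted genes, DEGs numbered 4 in LIM1215-R1 (without B3GALT5, ST3GAL1 and ST3GAL4), 6 in LIM1215-R2 (without ST3GAL4) and 0 between the resistant lines, where ST3GAL1 had a shrunken log2 fold change of 1.21. At a log2 fold change of 1, they numbered 12, 11 and 2. At an adjusted p of 0.05, 10 members and 16 other glycosylation genes changed between the resistant lines. With each library left out in turn, 22 to 24, 21 to 25 and 4 to 6 members changed in the 3 comparisons, 6 to 7, 7 to 8 and 1 were DEGs, and 24 to 27, 23 to 25 and 7 to 11 other glycosylation genes changed. With the replicate number as a block, 25, 28 and 7 members and 32, 29 and 12 other genes changed. Deviations of same-numbered libraries correlated at -0.11 to 0.27, so the numbers were not taken to pair the libraries, and the replicate block is given as a number only. ST3GAL1 and ST3GAL4 had 1 and 3 parental counts, and depth limits the size of their changes.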
